A study of Homo sapiens with 2 samples.

Results

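The genes described here encode the proteins of the mitochondrial ribosome, measured in SAS, a human cell line from a squamous carcinoma of the tongue. They were taken as every probe of the array that names exactly 1 gene and whose symbol begins with MRPL or MRPS followed by a number, leaving out pseudogenes. That gave 102 probes of 74 genes, among 24740 probes naming 1 gene and 18365 genes in all. The shATMIN cells were transfected with hairpin plasmids against ATMIN, the gene of a zinc finger protein that interacts with the ATM kinase, and the study asked whether loss of that protein affects cancer progression. The control cells are called neo, but the sources used here do not say what they carried. The treatment text, given alike for both samples, describes lipid transfection, puromycin selection and growth of resistant clones, so a difference between the samples may also be one between clones. There was 1 sample per group, so nothing below was tested against replicate spread.

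The mitochondrial ribosome translates the few messages that the mitochondrial genome encodes, all of them for subunits of the respiratory chain and ATP synthase. Its RNAs come from the mitochondrial genome, while all of its proteins are encoded in the nucleus, made in the cytosol and imported. Proteins of the large subunit (MRPL) surround the site of peptide bond formation, and those of the small subunit (MRPS) the site where messenger RNA is decoded. Part of each subunit descends from bacterial ribosomal proteins, and the rest was added in mitochondria.

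What the members share outside the array values was looked for first in their promoters. RefSeq windows of assembly GRCh38.p14, which hold 250 bases before and 50 from the transcript start, matched 66 of the 74 genes, in 82 windows. The letters AAGATGGC, on either strand, a core recognised by the zinc finger factor YY1, occurred in 26.8% of these windows, in 2.89% of all 35116 windows and in 4.44% of the windows of all compared genes. The letters CCGGAAGT, a core recognised by ETS factors such as GABPA, occurred in 17.1% of the windows, against 4.14% of all windows and 6.79% of those of compared genes. Of 21 distinct AAGATGGC matches in 20 genes, 15 lay after the transcript start in the direction of the gene, with their first base between positions 7 and 36 (median 16, counted from 1 at the start). Counted per window, 65.2% of 23 member matches lay so, and 41.6% of the 1056 matches in all windows. The position is thus frequent for these letters in other genes too. Of the 14 CCGGAAGT matches in 12 genes, 13 lay before the start. Most of each window lies before the start, so this count alone shows no preference. Counted per window, 0 of 17 member matches lay after the start in the direction of the gene, and 5.88% of 1598 in all windows. A match says only that the letters are there, and these motifs were chosen after the expression differences had been seen.

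The following 30-base windows show those positions in members that the results turn on, 5′ to 3′ along the gene, with the motif letters (or their reverse complement) in capitals. The AAGATGGC set comes from genes toward either end of the range of expression differences described below. The CCGGAAGT set adds MRPS34, the small subunit gene with the lowest difference, and MRPL51.
MRPL49 (chr11:65122333-65122362, + strand): cgtagcaggtaAAGATGGCagctaccatgt
MRPS10 (chr6:42217834-42217863, - strand): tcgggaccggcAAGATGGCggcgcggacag
MRPS30 (chr5:44808949-44808978, + strand): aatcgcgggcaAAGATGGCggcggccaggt
MRPL20 (chr1:1407260-1407289, - strand): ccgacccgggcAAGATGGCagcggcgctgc
MRPS18B (chr6:30617852-30617881, + strand): gggcgtacgtcAAGATGGCggcgtctgtat
MRPL50 (chr9:101398577-101398606, - strand): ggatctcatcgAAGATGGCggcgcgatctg
MRPL32 (chr7:42932143-42932172, + strand): acccgcgctccGCCATCTTtacccgaagag
MRPS34 (chr16:1773136-1773165, - strand): ctcttccggtgACTTCCGGccggaccgctg
MRPL20 (chr1:1407319-1407348, - strand): cgaccttcgccCCGGAAGTatcgcaggggc
MRPL51 (chr12:6493364-6493393, - strand): ggcgctccaaaACTTCCGGcaggcggaccg
In MRPL32 the match lay on the opposite strand, far before the start, at position -222. MRPS12, also toward the lower end but not shown, had such a match at position -212.

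Members with and without these letters had similar expression differences. The 20 compared members with AAGATGGC had a median difference of -0.14 on the log2 scale, shATMIN minus neo, and ran from -0.55 to 0.16, while the 44 without it had a median of -0.17. For CCGGAAGT the medians were -0.15 in 11 members with it and -0.16 in 53 without. The palindromic core of NRF1, another regulator of mitochondrial genes, was found in 1 member window, that of MRPL17. That is 1.22% of them, against 1.24% of all windows and 1.87% of those of compared genes. CACGTG occurred in 12.2% of member windows and 7.26% of all windows, CCAAT in 34.1% and 34.6%, and TATAAA in 4.88% and 11.5%. In the windows of compared genes the shares were 9.11% for CACGTG, 35.0% for CCAAT and 7.44% for TATAAA. The TATAAA share of members rests on 4 windows.

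**Figure D1:**
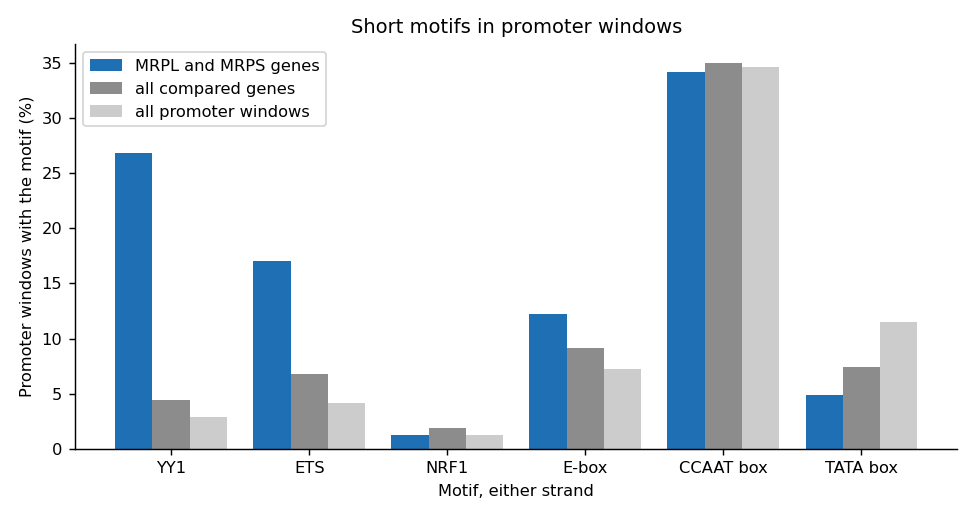
Share of 300-base promoter windows (%) that hold each motif on either strand, for the mitochondrial ribosomal protein genes, for all compared genes and for all windows; bars start at 0. The YY1 letters stood at 26.8% of member windows and 2.89% of all windows, the ETS letters at 17.1% and 4.14%, and the CCAAT box was alike at 34.1% and 34.6%.

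Of the whole measurement, the following facts bear on the values. The array gave 31741 probe intensities per sample, with a median of 106 in shATMIN and 109 in neo cells and an upper quartile of 535 and 629. ATMIN itself read 61.5 in shATMIN and 105 in neo cells, a difference of -0.76. Its second probe read 26.5 and 51.5, below the level filter of 58.9 described below. Epithelial markers such as KRT5 (16170 in shATMIN, 13322 in neo) and EPCAM (23080 in shATMIN, 30888 in neo) were present and KRT8 was dim (99.5 and 120). The markers with the greatest differences were TP63, a squamous lineage factor, at 2060 in shATMIN and 4717 in neo cells (-1.19, with -0.06 on a second probe), KRT6A at 2024 and 1013 (1.00) and KRT14 at 2555 and 1284 (0.99), each beyond the range of the mitochondrial ribosomal protein genes on their brightest probes. The summed intensity of the 11 epithelial markers measured, not all of them particular to squamous cells, was 64656 in shATMIN and 73631 in neo cells. Of 9 leukocyte markers 4 were below the level filter: PTPRC (14 in shATMIN, 13.5 in neo), CD3E (14.5 and 12.5), CSF1R and LYZ. CD3D (600 and 612), CD14 (2602 and 2858), CD68 (174 and 272), ITGAM (103 and 70.5) and MS4A1 (149 and 169) were above it. Of 8 fibroblast markers 5 were below the level filter: COL3A1 (2.00 and 2.50), COL1A2, DCN, PDGFRB and THY1. COL1A1 (423 and 459), LUM (132 and 131) and FAP (983 and 1030) were above it. The endothelial markers CDH5 (115 and 175), TEK (195 and 148) and VWF (164 and 184) were dim. Of the 6 endothelial markers KDR and CLDN5 were below the level filter. Summed markers were 3699 and 4047 for 9 leukocyte, 612 and 627 for 6 endothelial and 1632 and 1714 for 8 fibroblast genes, and their part in the differences was not tested.

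Intensities were taken as log2(intensity + 1), a scale that understates the difference of dim genes, and each gene was read from its brightest probe. A gene was compared where the mean of both samples reached the 40th percentile of all probes, an intensity of 58.9. Of the 74 members 72 passed. MRPL16, a bacterial-type large subunit protein, read 32.0 in both samples and MRPL28 read 11 in shATMIN and 11.5 in neo cells, so neither could be compared. No member was at 0 or above 60000, where the scale ends. The 45 large subunit genes ranged from 108 to 42172 in shATMIN and from 120 to 44707 in neo cells. The 27 small subunit genes ranged from 113 to 26631 and from 109 to 26918. Probes differ in how strongly they bind, so these ranges do not order the genes by abundance.

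**Figure D2:**
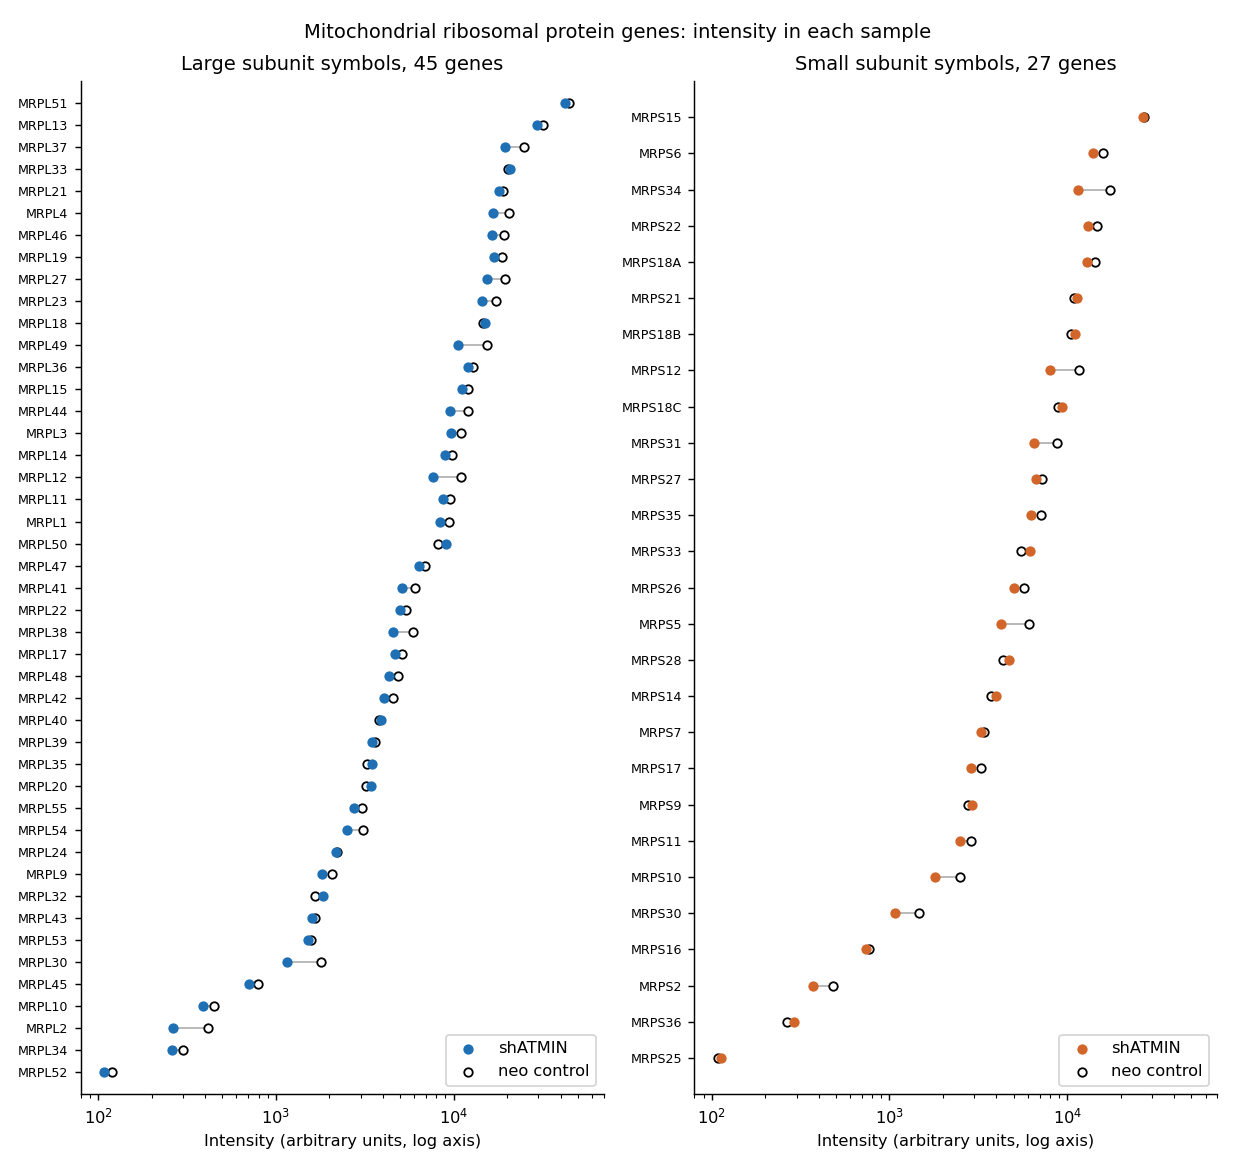
Intensity (arbitrary units, log axis) of the brightest probe of each of the 72 compared genes, in shATMIN (filled) and neo (open) cells, 45 genes with large subunit symbols on the left and 27 with small subunit symbols on the right, ordered by mean level. In most rows the points nearly coincide, and MRPL2, MRPL30, MRPS34, MRPL49, MRPS12 and MRPL12 show the widest gaps.

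As deposited, the genes of the mitochondrial ribosome were slightly lower in shATMIN cells and close together. The median difference was -0.15 over 72 genes, with quartiles of -0.24 and -0.04 and extremes of -0.66 and 0.16. All compared genes had a median of -0.16, so the members lay at the same place as the array as a whole. Of the members 56 were lower, which is 77.8%, and 70.7% of all 12430 compared genes were lower. Among the 500 other genes nearest in level to each member, the share lower had a middle value of 79.5% (54.8% to 83%). The other 16 members, 22.2%, were higher, as were 29.3% of all compared genes. The direction depends on the scaling: after removal of the trend on level 23 of 72 were lower and the median was 0.07, and after scaling by the 75th percentile of each sample 19 were lower and the median was 0.08. Of all compared genes 48.5% were lower with the trend removed, with a median of 0.01, and 41.2% with that scaling, with a median of 0.07.

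Differences past 1.5-fold were few. MRPL2, MRPL30 and MRPS34 were at least 1.5-fold lower, 3 of 72 members or 4.17%, where 12.2% of all compared genes were. No member was at least 1.5-fold higher, a size that 1.91% of all genes reached. On their brightest probe none of the 72 was at least 2-fold lower or higher, against 1.34% and 0.459% of all genes. The SD over members was 0.20, and that over all compared genes 0.38. The members were brighter, at a median level of 12.4 on the log2 scale against 9.04 for all compared genes. Among the 500 genes nearest in level to each member the SD had a middle value of 0.30. The share of those genes past 1.5-fold was not computed.

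The differences and their spread change with level, so each member was also set beside the 500 other genes nearest to it in mean level. Those neighbours had medians between -0.31 and -0.03, with a middle value of -0.19, and SDs between 0.22 and 0.39. The members stood a median of 0.06 above their neighbours' medians, and 48 of 72 lay above. Between the neighbours' quartiles lay 43 members, below the lower quartile 10 and above the upper quartile 19. With neighbours chosen on mean level and gene span together, an alternative added after seeing the data, the median excess was 0.06 and 49 lay above.

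**Figure D3:**
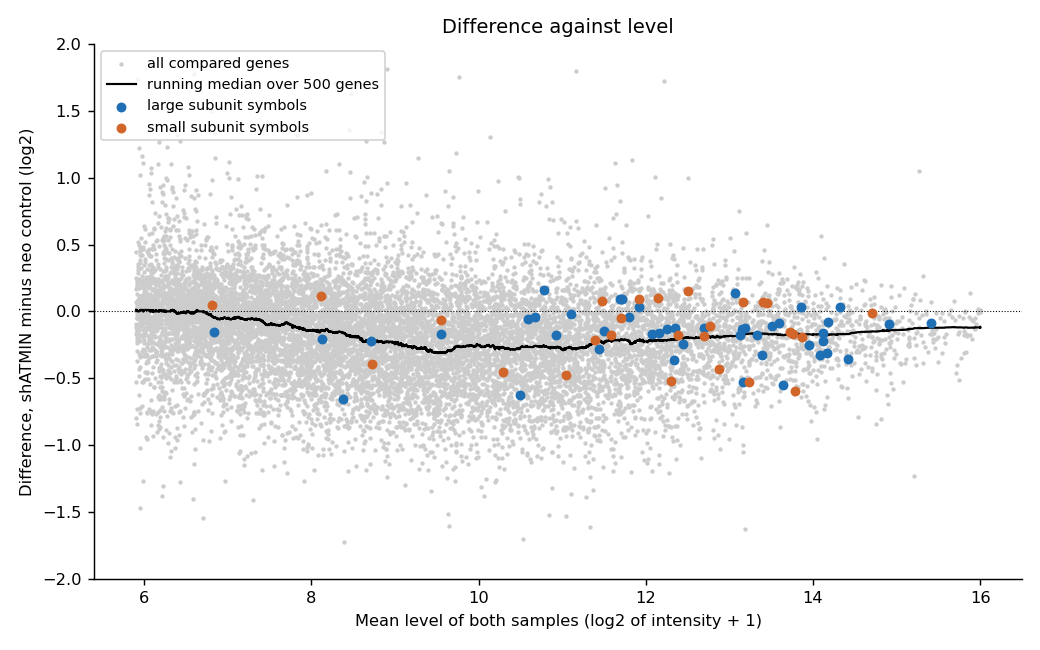
Difference, shATMIN minus neo (log2), against mean level (log2 of intensity + 1) for the 12430 compared genes (grey), with the running median over 500 genes (black line) and the members coloured by subunit symbol; 9 genes lie outside the plotted range. The members follow the running median within -0.66 and 0.16, inside the grey cloud at every level.

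The lower end of the range held proteins of both subunits. MRPL2, a bacterial-type protein near the catalytic centre of the large subunit, read 263 in shATMIN and 416 in neo cells, a difference of -0.66. The low intensities are averages of a pair of whole-number readings that can be recovered below 1000, and for MRPL2 the readings were 252 and 274 in shATMIN and 412 and 420 in neo cells. The pairs do not overlap. MRPL30, of the bacterial L30 family, read 1160 in shATMIN and 1792 in neo cells (-0.63). Its second probe read 500 in shATMIN and 717 in neo cells (-0.52), with readings of 491 and 509 against 718 and 716. Both probes of MRPL30 were thus lower by a similar amount.

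MRPS34, a mitochondria-specific protein of the small subunit, read 11501 in shATMIN and 17372 in neo cells, a difference of -0.60, and its second probe read 3297 and 4553 (-0.47). MRPL12, a protein of the flexible stalk that recruits translation factors and that also binds the mitochondrial RNA polymerase, read 7636 in shATMIN and 11023 in neo cells (-0.53). Its second probe read 2051 and 2903 (-0.50). MRPS31, another mitochondria-specific small subunit protein, read 6471 in shATMIN and 8731 in neo cells (-0.43), with -0.24 on a second probe. For these 3 genes the further probe had the same sign.

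MRPL49, a mitochondria-specific large subunit protein with 1 probe, read 10516 in shATMIN and 15395 in neo cells (-0.55). MRPS5, whose bacterial relative lies where messenger RNA enters the ribosome, read 4228 in shATMIN and 6061 in neo cells (-0.52). MRPS10 read 1796 in shATMIN and 2499 in neo cells (-0.48). MRPS30, which carries a small subunit name but sits in the large subunit, read 1072 and 1467 (-0.45). MRPS12, the relative of the bacterial decoding protein S12, read 8037 in shATMIN and 11604 in neo cells (-0.53) on its brightest probe. Its dim second probe read 219 and 208 (0.08), so this gene's probes disagree. MRPL49, MRPS5, MRPS10 and MRPS30 rest on a single probe each. Within their classes the mitochondria-specific MRPL38 (4576 in shATMIN, 5881 in neo, -0.36) and MRPS35 (6242 and 7105, -0.19) came next.

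Removal of the trend on level left these genes lower by a smaller amount, at -0.47 for MRPL2, -0.41 for MRPS34, -0.36 for MRPL49, -0.35 for MRPL30, -0.33 for MRPL12 and -0.29 for MRPS5. None then reached 1.5-fold.

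At the upper end the differences were small. MRPL32, a zinc-binding bacterial-type protein that the inner membrane protease AFG3L2 processes, read 1853 in shATMIN and 1658 in neo cells, a difference of 0.16. MRPS33 read 6145 in shATMIN and 5524 in neo cells (0.15), and its second probe 601 and 504 (0.25), although the recovered readings of that probe overlap, at 715 and 486 in shATMIN and 543 and 465 in neo cells. MRPL50 read 9026 and 8194 (0.14). These 3 were the highest members by symbol.

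The next highest by symbol was MRPS36, at 288 in shATMIN and 266 in neo cells (0.11), with readings of 280 and 297 against 263 and 270. Its current name is KGD4, a subunit of the alpha-ketoglutarate dehydrogenase complex, so it is no protein of the ribosome. The rest of the upper 10 were MRPS28 at 0.10, MRPS14, MRPL35 and MRPL20 at 0.09, MRPS9 at 0.08 and MRPS18C at 0.07, followed by MRPS18B, also at 0.07. Second probes of MRPS28 (-0.08), MRPS14 (-0.06), MRPL35 (-0.13), MRPL20 (-0.07), MRPS18C (-0.04) and MRPS18B (-0.25) all had the other sign, so the direction of these genes is not settled by the array.

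**Figure D4:**
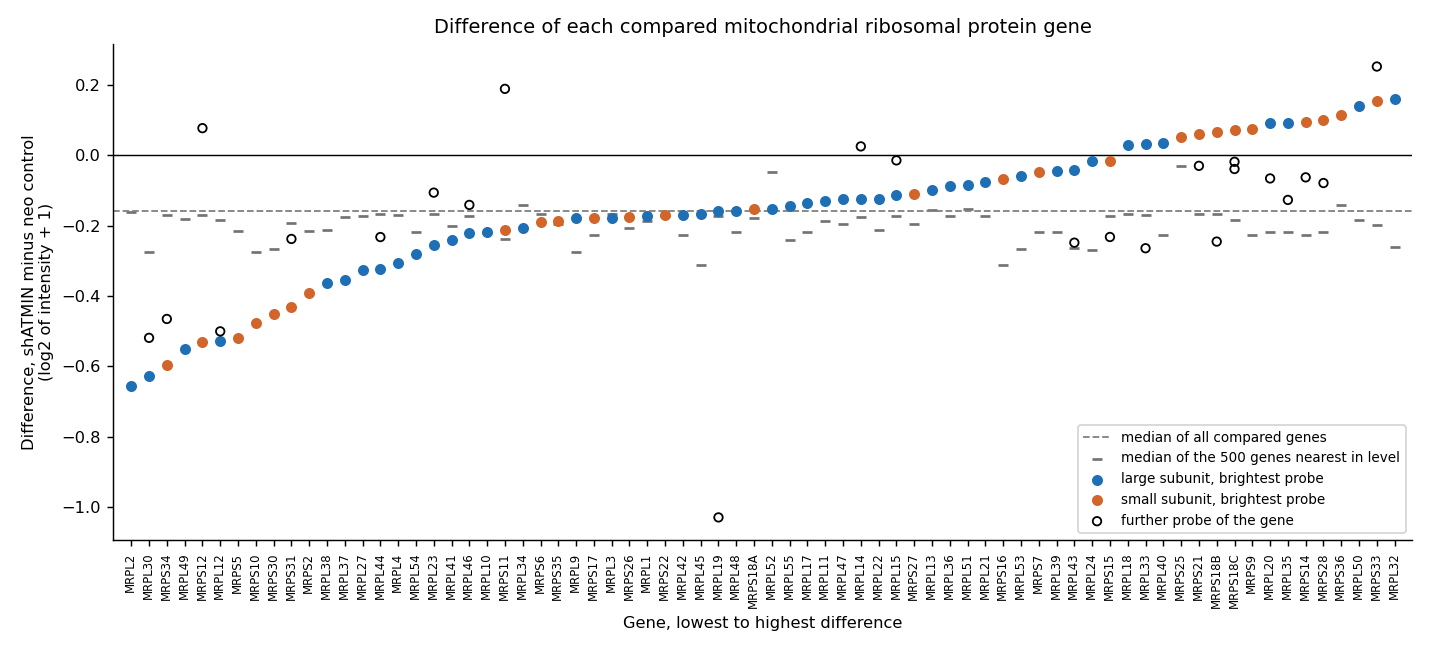
Difference, shATMIN minus neo (log2 of intensity + 1), of the 72 members from lowest to highest: filled points are the brightest probe, coloured by subunit symbol, open circles further probes above the level filter, short bars the median of the 500 genes nearest in level, and the dashed line the median of all compared genes, -0.16. The filled points run from -0.66 (MRPL2) to 0.16 (MRPL32), and one further probe, of MRPL19, lies at -1.03.

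The members with the highest and lowest intensities differed little between the samples. MRPL51 read 42172 in shATMIN and 44707 in neo cells (-0.08), MRPL13 29616 and 31697 (-0.10), and MRPS15 26631 and 26918 (-0.02). At the dim end MRPS25 read 113 in shATMIN and 109 in neo cells (0.05), and MRPL52 108 and 120 (-0.15), with overlapping readings in both cases.

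MRPL19, named after its values were seen, had the one probe past 2-fold. Its brightest probe read 16779 in shATMIN and 18737 in neo cells (-0.16), while its second probe read 497 and 1015 (-1.03). The gap of 0.87 between them was the widest of any member. Among 23 members with several compared probes, 12 had probes of one sign, and the SD between probes of a gene was 0.20, against 0.34 over 2967 genes with several probes. That SD is as large as the spread of the 72 members themselves.

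Recovered readings were available in both samples for 19 member probes above the level filter, all below 1000. In 8 of them, 42.1%, the shATMIN readings lay wholly below the neo readings, and in 1 they lay wholly above. Over all compared probes with such readings the shares were 48.7% and 21.7%. Besides MRPL2 and MRPL30, the lower ones included MRPS2, a bacterial-type small subunit protein, with readings of 360 and 378 in shATMIN and 464 and 504 in neo cells (-0.39). MRPL10, of the stalk base, had 385 and 391 in shATMIN and 458 and 445 in neo cells (-0.22). The others were MRPL34 (-0.21), MRPL45 (-0.17) and the second probes of MRPL35 (-0.13) and MRPL43 (-0.25). The sources used here do not say whether a pair stands for the 2 arrays listed for a sample, and the pair holds no spread between cultures.

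The subunits did not separate by their middle. Genes named for the large subunit had a median difference of -0.15 with 38 of 45 lower, and those named for the small subunit -0.15 with 18 of 27 lower. The medians differ by 0.002, and the sign of that gap turned under 7 alternatives. The small subunit was more spread, with quartiles of -0.30 and 0.06 and an SD of 0.23, against -0.24 and -0.08 and an SD of 0.18 in the large subunit. Relative to genes of similar level the medians were 0.06 for the large and 0.05 for the small subunit.

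By descent, 28 bacterial-type large subunit genes had a median of -0.13 with 23 lower, and 19 mitochondria-specific ones with a large subunit symbol or MRPS30 and MRPS18A a median of -0.17 with 17 lower. In the small subunit, 15 bacterial-type genes had a median of -0.07 with 10 lower, and 9 mitochondria-specific genes -0.17 with 6 lower. The 3 human relatives of bacterial S18 are divided here, with MRPS18C counted as bacterial-type and MRPS18A and MRPS18B as mitochondria-specific. MRPS18A, which sits in the large subunit, stood at -0.15, and MRPS18B and MRPS18C at 0.07 each.

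By chromosome, groups of at least 3 members had medians between -0.29 (chromosome 19, 4 genes) and 0.15 (chromosome 7, 3 genes), and the 8 members on chromosome 1 had a median of -0.02.

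Several members share their promoter with a gene that runs the other way. In the RefSeq windows 13 pairs of a member and a protein-coding neighbour had head-to-head starts at most 300 bases apart, and in 12 both genes were compared. In 2 of these, FAU beside MRPL49 and PSMA2 beside MRPL32, the partner was over 60000 and cannot be read. In 6 of the other 10 pairs both differences had one sign. With 70.7% of all compared genes lower and 29.3% higher, unrelated genes also often share a sign. The share of such pairs was not computed, so the count of 6 has no background. MRPL30 (-0.63) and MITD1 (883 in shATMIN, 978 in neo, -0.15) start 126 bases apart. MRPS12 (-0.53) and SARS2, a mitochondrial seryl-tRNA synthetase (222 in shATMIN, 238 in neo, -0.10), start 181 bases apart. MRPL18 (0.03) starts 210 bases from TCP1, a subunit of the cytosolic chaperonin, which read 1686 in shATMIN and 2412 in neo cells (-0.52). These pairs were looked up after the differences had been seen.

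Proteins of the same ribosome that carry other names gave similar values. DAP3, a GTP-binding small subunit protein, read 700 in shATMIN and 871 in neo cells (-0.31), and GADD45GIP1, of the large subunit, 14462 and 17974 (-0.31). PTCD3 stood at -0.22, with 0.11 on a second probe. CHCHD1 was at 0.13 and MRPL58, listed on the array as ICT1, at -0.08. MRPL57, listed as MRP63, read 894 and 855 (0.06), with -0.02 on a second probe. Both probes of MRPS24 also name a readthrough gene and were not counted, and they read 44521 in shATMIN and 48240 in neo cells (-0.12) and 23851 and 28850 (-0.27).

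The factors that work with the ribosome are set beside the shares over all compared genes, of which 70.7% were lower as deposited and 48.5% with the level trend removed. Of 14 mitochondrial translation factors 12 were lower, with a median of -0.24, which is 0.01 from the medians of genes of similar level. GUF1, an elongation factor GTPase, read 1006 in shATMIN and 1627 in neo cells (-0.69, and -0.42 on a second probe). TACO1, an activator of cytochrome oxidase translation, stood at -0.42, and MTFMT, which formylates the initiator tRNA, at -0.37. Of 24 genes of ribosome assembly and rRNA modification 19 were lower, with a median of -0.26. The RNA helicase DHX30 read 1641 and 2797 (-0.77) and the helicase DDX28 1561 and 2366 (-0.60). METTL15, a methyltransferase of the small subunit rRNA, stood at -0.77 on its brightest probe and 0.21 on another. With the level trend removed 6 of the 14 factors and 12 of the 24 assembly genes were lower, near the 48.5% of all genes.

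All 16 compared mitochondrial aminoacyl-tRNA synthetases were lower as deposited, with a median of -0.23, where 70.7% of all compared genes were. With the trend on level removed 9 of 16 were lower, beside 48.5% of all genes. MARS2, for methionine, read 2552 in shATMIN and 4225 in neo cells (-0.73), IARS2, for isoleucine, stood at -0.59 and FARS2, for phenylalanine, at -0.58. Genes of mitochondrial transcription and RNA stability had 13 of 18 lower and a median of -0.11. POLRMT, the mitochondrial RNA polymerase, read 703 and 1061 (-0.59), and LRPPRC, which stabilises mitochondrial messages, stood at -0.44 and -0.90 on its 2 probes. TFAM, which packages mitochondrial DNA and starts its transcription, read 2038 in shATMIN and 1481 in neo cells (0.46). That was above every compared mitochondrial ribosomal protein gene.

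Among regulators of nuclear genes for mitochondria 5 of 10 were lower, with a median of -0.05, which became -0.24 when the probes of a gene were averaged. GABPA, the ETS factor named above, read 433 in shATMIN and 640 in neo cells (-0.56), the coactivator PPRC1 stood at -0.42 and MYC at -0.31. YY1 itself read 11529 in shATMIN and 9891 in neo cells (0.22). Import and mass markers had 19 of 21 lower and a median of -0.21, with the receptor TOMM70 at -0.76, PHB1 at -0.47 and the channel VDAC1 at -0.46, the last above 60000 in neo cells. All 10 proteases of quality control were lower, with a median of -0.23, among them AFG3L2 at -0.58, CLPP at -0.52 and SPG7 at -0.52. After removal of the trend on level 3 of 10 regulators, 11 of 21 markers and 6 of 10 proteases were lower, against 48.5% of all compared genes, and as deposited the share over all genes was 70.7%.

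**Figure D5:**
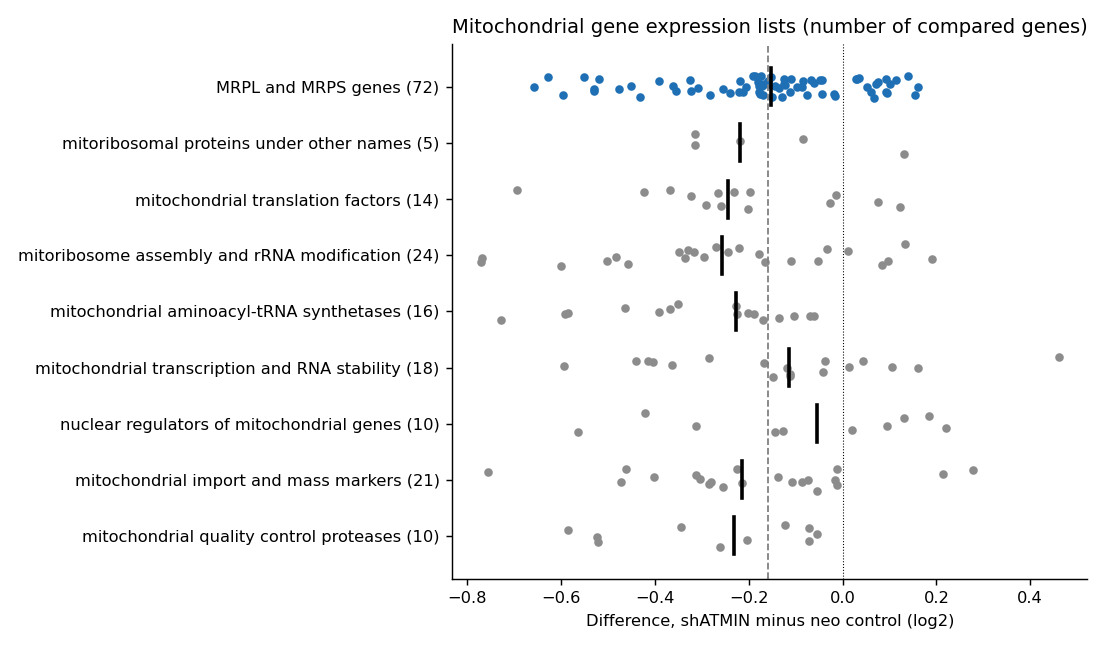
Difference, shATMIN minus neo (log2), of each compared gene in the mitochondrial ribosomal protein set (top, blue) and in 8 lists of genes that act with it (grey), with black bars at the medians, the dotted line at 0 and the dashed line at the median of all compared genes, -0.16. The medians lie between -0.26 (assembly and rRNA modification) and -0.05 (regulators), with the ribosomal proteins at -0.15.

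The sets most like this one were placed beside it. Genes of respiratory complex I, which contains products of the mitochondrial ribosome, had a median of -0.04 over 34 genes with 23 lower, 0.15 above genes of similar level. For the cytosolic ribosome 64 genes gave a median of -0.09 with 50 lower, and 17 of them were over 60000 in a sample. Without those 17 the median was -0.10 with 39 of 47 lower. Relative to genes of similar level the 64 stood at 0.09 and the 47 at 0.08. The mitochondrial ribosomal protein genes, at -0.15, had a lower median as deposited than both sets. At 0.06 above genes of similar level they were close to the cytosolic ribosome and further from complex I. With 1 sample per group these gaps have no test.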

How the data were processed

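The deposited values are linear intensities, 1 per probe and sample, from 1-colour arrays with Cy5-labelled amplified RNA, per the labels' protocols. The labels list 2 arrays per sample. The sources used here do not give the scanner, background correction, averaging or normalization, and the number of arrays limits the precision. Values below 0 were set to 0 and taken as log2(intensity + 1), and no scaling was applied. Probes were named by the platform annotation. Gene lists were matched through RefSeq names (assembly GRCh38.p14), which also gave chromosomes and promoters.

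Each gene was read from its brightest probe, above the 40th percentile of all probes. Differences are shATMIN minus neo. Since each group had 1 sample, no test was made. Named members are the 10 lowest and 10 highest, the 3 brightest and 3 dimmest, and any past 2-fold, at 0 or over 60000, and of each other list the 3 with the greatest difference, with further examples chosen after their values were seen. The members and lists were chosen with earlier results of these data known. Pairs of readings were solved for intensities under 1000 as whole numbers with scale factors near 1 (1.0019 and 0.9981 in shATMIN, 1.0022 and 0.9978 in neo). They resolved 99.7% of values in each sample within 5e-05. The neighbour and pair calculations were tested on simulated data. Alternatives covered normalization, the level filter, several probes per gene, the pseudocount, naming, the subunit assignment and the neighbour window. The level trend was a loess curve with a span of 0.3 (statsmodels 0.14.6). Scripts ran in Python 3.11.15 with NumPy 2.4.6 and pandas 2.3.3, and plots were drawn with matplotlib 3.10.9. One promoter window is not reported here.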

Additional observations from a re-analysis of the deposited data

How the results depend on the processing

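No paired analysis was possible because each group had 1 sample. The median difference of the members kept its sign without a level filter, with a filter at the 60th percentile, with other ways of combining probes, with a pseudocount of 16, without probes over 60000, with updated symbols and in genes with recovered readings. It turned to 0.0805 with scaling to the 75th percentile, 0.0697 with quantile normalization and 0.0720 with removal of the level trend, and the members then lower numbered 19, 23 and 23. The shares of all compared genes then lower were 41.2%, 49.4% and 48.5%. The median of all compared genes moved likewise, to 0.0731, 0.00218 and 0.0116. Under those 3 settings 0 members were at least 1.5-fold lower. The large minus small subunit median of 0.002 turned to -0.000236 with scaling, -0.00156 with quantile normalization, -0.00381 with the trend removed, -0.0274 with the mean of a gene's probes, -0.0725 with every probe counted, -0.20 in genes with recovered readings and -0.0123 with MRPS18A and MRPS30 in the large subunit and MRPS36 left out. With every probe counted 1 of 96 probes was at least 2-fold lower, the MRPL19 probe named above. In genes with recovered readings 7 of 9 members were lower and 1 was at least 1.5-fold lower, by construction fewer because only 9 members remained. The excess over genes of similar level stayed between 0.05 and 0.06 in every setting but that of recovered readings, where it was 0.003. The causes of the other shifts were not tested. Of 271 values of 28 named members over the alternatives, 270 stayed within 0.34, the SD between probes of a gene, and the exception was MRPL19 with the mean of its probes, at -0.59. Over the 8 lists of other genes the medians lay between -0.26 and -0.05 as deposited, between -0.02 and 0.18 with scaling, between -0.09 and 0.15 with quantile normalization and between -0.10 and 0.16 with the trend removed. With the mean of a gene's probes the regulators moved to -0.24 and the ribosomal proteins of other names to -0.08, and without a level filter the regulators stood at 0.02. With the same averaging TP63 moved to -0.63 and METTL15 to -0.28. Counting every probe was not run for named genes and lists.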
